A study of Rattus norvegicus with 8 samples.

Results

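The zinc finger genes named Zfp followed by a number were examined in H9c2 cells, a line of rat myoblasts from embryonic heart tissue that can form muscle-like cells. Members were all genes whose symbol on the array began with Zfp and a digit, and Zbtb, Zscan, Zkscan and Znf genes were left out. There were 161 members of 15037 named genes, and each was read by 1 probe set. Measured values entered the choice only where members were split into brighter and dimmer ones by mean intensity, but the family itself was taken up with earlier results of these data known.

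Cells were either flown to the International Space Station or grown on the ground with the temperature profile of the flight repeated, and in each regime some were given nanoceria, cerium oxide nanoparticles with antioxidant activity, at 100 µg/ml coated with fetal bovine serum. All cells were in differentiation medium with low serum and were fixed at day 10 after seeding. Each of the 8 samples gave 1 Clariom S Pico array: 2 of untreated ground cells (replicates 1 and 3), 3 of nanoceria-treated ground cells, 1 of untreated space cells and 2 of nanoceria-treated space cells. Values are log2 of the deposited intensity, which ran from 8.63 to 19506.1, and array medians ran from 107.3 to 116.6. The number of arrays limits the precision. Nothing in the labels says that replicates were separate cultures, and the spread behind each p-value may then be technical. Because the ground cells were a separate run after the flight, spaceflight and culture run cannot be told apart. In bulk RNA, fewer cells with a transcript and less transcript per cell cannot be told apart either.

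Most Zfp proteins carry tandem C2H2 zinc fingers, small folds that hold a zinc ion and read DNA bases. Many also carry a KRAB domain, which recruits Trim28 (KAP1) and through it histone deacetylases, the methyltransferase Setdb1 and HP1 proteins, and so represses retrotransposons and imprinted regions. The name covers other proteins as well: Zfp36 and its relatives have CCCH fingers that bind AU-rich messenger RNA, and Zfp622, Zfp593 and Zfp598 act on ribosomes.

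Promoter sequences are shown first to let the motif counts given further on be read against real examples. The motif was picked after the data were seen and has no test. RefSeq on GRCr8 gave the 250 bases before the start of 132 of the 161 members. Of the 9 members with the smallest p-values among those lower with nanoceria, 8 had a promoter, and 4 of these hold the ETS core CGGAAG and 4 do not. Shown are the 4 that hold it, in capitals and read as its reverse complement CTTCCG on the gene's strand. Also shown is 1 that does not, Zfp317, the member with the largest difference on the ground. Each is written 5′ to 3′ on the gene's strand and ends at the base before the start.
Zfp458, chr2:86401264-86401513, plus strand: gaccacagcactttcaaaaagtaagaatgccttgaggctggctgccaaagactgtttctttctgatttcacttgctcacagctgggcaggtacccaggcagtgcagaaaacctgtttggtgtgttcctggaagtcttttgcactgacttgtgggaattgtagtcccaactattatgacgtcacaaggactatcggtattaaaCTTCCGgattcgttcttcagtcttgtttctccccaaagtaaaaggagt
Zfp709l1, chr7:8358804-8359053, minus strand: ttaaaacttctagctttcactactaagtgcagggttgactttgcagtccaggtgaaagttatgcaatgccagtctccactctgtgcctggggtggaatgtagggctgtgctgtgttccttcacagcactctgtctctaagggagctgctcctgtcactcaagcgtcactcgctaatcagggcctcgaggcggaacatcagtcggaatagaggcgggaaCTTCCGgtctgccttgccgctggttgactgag
Zfp68, chr12:21139661-21139910, plus strand: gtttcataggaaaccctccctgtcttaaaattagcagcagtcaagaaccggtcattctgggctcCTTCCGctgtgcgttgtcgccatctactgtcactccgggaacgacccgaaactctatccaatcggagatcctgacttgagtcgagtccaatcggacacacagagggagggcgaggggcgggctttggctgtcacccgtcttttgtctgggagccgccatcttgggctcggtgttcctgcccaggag
Zfp445, chr8:131350750-131350999, minus strand: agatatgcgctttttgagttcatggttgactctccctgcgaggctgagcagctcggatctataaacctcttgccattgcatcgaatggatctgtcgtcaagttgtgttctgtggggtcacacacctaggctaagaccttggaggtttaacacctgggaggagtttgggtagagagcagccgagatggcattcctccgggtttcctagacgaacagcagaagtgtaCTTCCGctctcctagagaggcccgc
Zfp317, chr8:25867428-25867677, plus strand: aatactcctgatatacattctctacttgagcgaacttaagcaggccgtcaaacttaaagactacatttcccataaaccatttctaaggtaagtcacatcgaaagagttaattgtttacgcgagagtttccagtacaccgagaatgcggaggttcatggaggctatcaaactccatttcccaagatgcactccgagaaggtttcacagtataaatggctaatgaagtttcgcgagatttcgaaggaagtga

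The members covered most of the intensity range of the array. Their mean log2 intensity over all arrays ran from 3.86 (Zfp667) to 11.40 (Zfp36l1), with a median of 7.53 and quartiles of 6.57 and 8.35, beside a median of 6.82 and quartiles of 5.19 and 8.60 over all 23188 probe sets. Of the members, 112 lay above the median of all probe sets and 49 below it. This split is a description, since intensity defined it: just below it were Zfp575 at 6.79 and Zfp879 at 6.77, and just above it Zfp653 at 6.94 and Zfp316 at 6.97. Probe sets differ in how well they bind their target, so the order of intensities is not an order of abundance. The 8 brightest were Zfp36l1 at 11.40, the imprint-maintaining KRAB protein Zfp57 at 10.56, the ribosome assembly factor Zfp622 at 10.53, Zfp148 at 10.50, Zfp609 at 10.04, Zfp64 at 10.04, Zfp637 at 9.90 and the ubiquitin ligase Zfp91 at 9.89. Zfp64 varied little: it read 10.04 and 10.05 on the untreated ground arrays, 10.08, 10.03 and 10.28 on the treated ground arrays, 9.98 in untreated space cells and 9.91 and 9.92 in treated space cells. With nanoceria on the ground, Zfp57 was at -0.20 ± 0.29 and Zfp609 at -0.18 ± 0.22 (log2 difference ± SE). Neither had a settled direction, since Zfp57 was at 0.26 without untreated ground replicate 1 and Zfp609 at 0.014 without treated ground replicate 1.

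On the ground, many members lay lower in nanoceria-treated than in untreated cells. At an unadjusted p under 0.05, 42 of 161 members (26.1%) were lower, beside 6.57% of all probe sets, and 6 (3.73%) were higher, beside 4.42%. The median difference of all 161 was -0.17 on the log2 scale, with quartiles of -0.69 and 0.15, beside 0.04 over all probe sets, and it was -0.10 without untreated ground replicate 1. By any amount, 100 members (62.1%) were lower, beside 44.5% of all probe sets. All 3 treated arrays lay below both untreated arrays for 50 members (31.1%, beside 12% of all probe sets), and above both for 21 (13%, beside 14.3%). No member passed an adjusted p of 0.05 in limma with Benjamini-Hochberg adjustment over all probe sets, where the smallest among members was 0.128, and 0 of 23188 probe sets did.

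The 42 lower members differed by -0.40 to -1.88, with a median of -0.90, and 14 of them by 2-fold or more. Zfp317, a KRAB zinc finger protein, had the largest difference. It read 7.32 and 6.89 on the untreated ground arrays, 4.90, 5.22 and 5.55 on the treated ones, 8.00 in untreated space cells and 6.98 and 6.87 in treated space cells. The treated ground arrays were the 3 lowest of the 8, and the difference on the ground was -1.88 ± 0.23 (SE; limma adjusted p = 0.128). Zfp458 read 6.56 and 6.34 in untreated ground cells, 5.37, 5.15 and 5.35 in treated ground cells, 6.03 in untreated space cells and 5.91 and 5.63 in treated space cells, a difference on the ground of -1.16 ± 0.17. The 2 groups on the ground did not overlap, and the space arrays lay between them.

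Zfp68 read 7.91 and 8.19 without and 6.58, 7.06 and 6.18 with nanoceria on the ground, a difference of -1.45 ± 0.26, and its space arrays at 7.87, 7.26 and 7.29 all lay above the treated ground arrays. Zfp709l1 differed less but its arrays were tight, at 7.65 and 7.64 without and 6.88, 6.92 and 6.79 with nanoceria on the ground (-0.78 ± 0.14), and 8.07, 7.74 and 7.63 in space. Zfp74 read 8.10 and 7.78 against 6.68, 6.64 and 7.12 on the ground (-1.13 ± 0.22). Its treated ground arrays were again the lowest of the 8. The KRAB protein gene Zfp386 read 8.95 and 8.50 against 7.40, 7.95 and 7.57 (-1.08 ± 0.22), with 8.87, 8.67 and 8.59 in space. Limma adjusted p-values of these 5 members after Zfp317 were 0.128 to 0.193.

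At an unadjusted p under 0.05, 6 members (3.73%) were higher with nanoceria on the ground, near the 4.42% of all probe sets. Zfp653 read 6.69 and 6.57 in untreated and 7.36, 7.31 and 7.45 in treated ground cells, and 6.62 in untreated and 6.83 and 6.72 in treated space cells. Its treated ground arrays were the 3 highest, with a difference of 0.75 ± 0.15 (limma adjusted p = 0.174). Zfp18 read 7.73 and 7.78 against 8.22, 8.15 and 8.33 (0.47 ± 0.15), and Zfp444 read 8.94 and 8.95 against 9.57, 9.31 and 9.97 (0.67 ± 0.25). Zfp358 at 0.69 ± 0.24, Zfp93 at 0.41 ± 0.16 and Zfp707l1 at 0.68 ± 0.27 completed the 6. Without treated ground replicate 1, Zfp707l1 was at 0.40, and without untreated ground replicate 3, Zfp93 was at 0.26. With array weights 2 members were higher in place of 6, and the share of all probe sets under that fit is not given.

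Array by array, the median member shifted most on the replicate 1 arrays of the ground groups. Each member's deviation from its own mean over the 8 arrays had a median of 0.11 and 0.04 on the untreated ground arrays (replicates 1 and 3), of -0.14, -0.03 and -0.02 on the treated ground arrays, of 0.01 on the untreated space array and of -0.01 and -0.04 on the treated space arrays. Over all probe sets these medians lay between -0.04 and 0.04. The replicate 1 arrays of the ground groups lay outside this range and the other 6 inside it, untreated ground replicate 3 at its edge. This range is not the spread of the members' median. The SD of the members' median log2 intensity between replicate arrays was 0.098. That is another measure than the median deviation, so these shifts cannot be judged against it. Whether the shifts exceed the spread of replicates was not tested. The mean of the treated ground group was the lowest of the 4 groups for 73 members (45.3%, beside 25% of all probe sets), and that of the untreated ground group for 19 (11.8%, beside 23.4%). Treated ground replicate 1 was the lowest of the 8 arrays for 49 members (30.4%, beside 16.6%), replicate 2 for 15 (9.32%, beside 8.01%) and replicate 3 for 27 (16.8%, beside 12%).

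**Figure D1:**
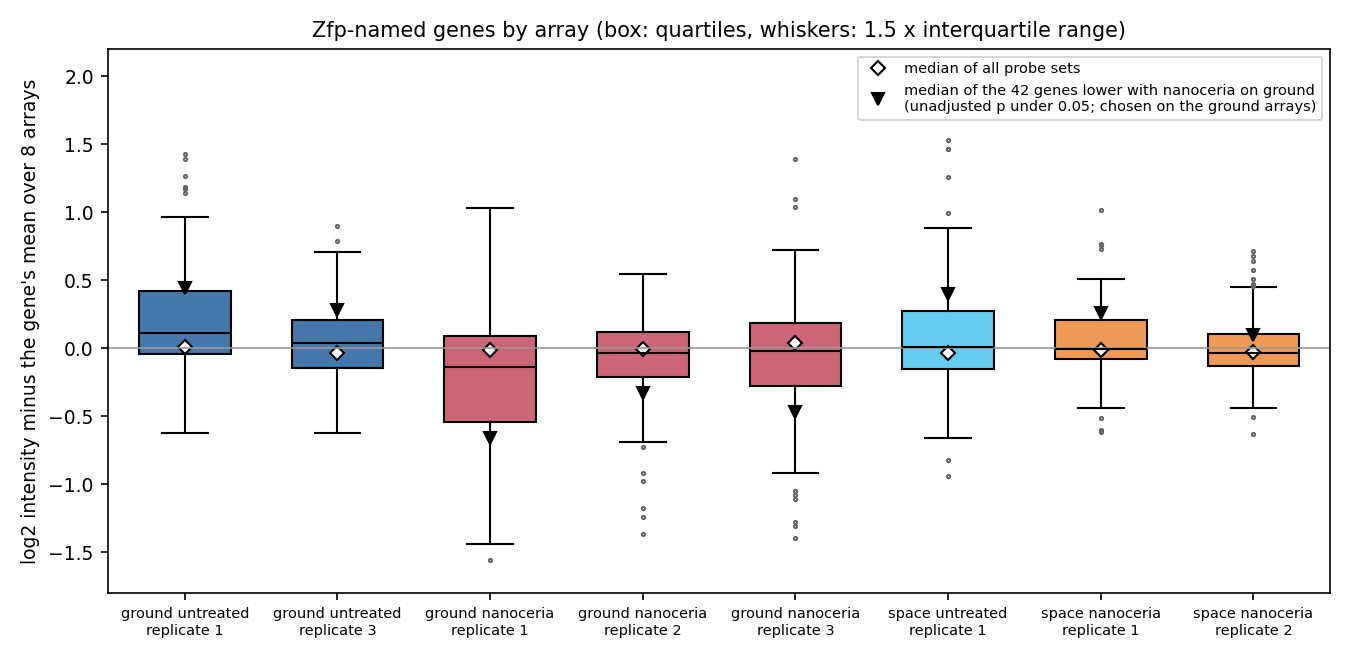
Deviation of each of the 161 members from its own mean over the 8 arrays (vertical axis, log2 units), 1 box an array (box: quartiles with the median, whiskers: up to 1.5 times the interquartile range, dots: members beyond them), with the median of all probe sets as a diamond and that of the 42 members lower with nanoceria on the ground as a triangle. The box of treated ground replicate 1 has the lowest median, -0.14, and that of untreated ground replicate 1 the highest, 0.11, while the triangles lie at -0.33 to -0.66 on the treated ground arrays, which served to choose those 42.

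Other measures differed between the ground arrays too. Untreated ground replicate 3 stood apart in cell cycle genes, whose mean deviation over 33 of 37 listed genes was -1.81 there and -0.04 to 0.40 on the other 7 arrays. The mean deviation of 13 of 14 listed skeletal muscle markers was -0.15 and -1.08 on the untreated ground arrays and 0.46, 0.24 and 0.82 on the treated ones, and 0.10, -0.32 and -0.07 in space. By any amount, 13 of the 13 were higher with nanoceria on the ground, beside 55.5% of all probe sets. At an unadjusted p under 0.05, 8 were higher, beside 4.42%. Of the defining muscle genes, Myog read 6.25 to 9.89 and Tnnt2 9.18 to 11.43, while Myf5 stayed at 4.01 to 4.75. The leukocyte marker Ptprc (4.03 to 4.62), the endothelial marker Pecam1 (4.16 to 4.73) and the epithelial marker Epcam (3.75 to 4.19) lay under 5.19. This is the lower quartile of all probe sets' mean intensity. The epithelial keratin Krt8 was bright at 10.42 to 12.15. These are single markers of longer lists. At an unadjusted p under 0.05 on the ground, 1 of 4 measured leukocyte markers was lower with nanoceria and 1 of 5 neuronal markers higher. Of 5 endothelial and 5 epithelial markers, 0 were lower or higher. Of all probe sets, 6.57% were lower and 4.42% higher. The part of these measures in the members' differences was not tested. The counts that follow lack the share of all probe sets under the same fits. Without untreated ground replicate 3, 48 members were lower on the ground, and without untreated ground replicate 1, 29 were.

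Brighter and dimmer members were then compared. Among the 112 members above the median of all probe sets, 28 (25%) were lower with nanoceria on the ground, beside 9.44% of all probe sets above it, and among the 49 below it 14 (28.6%), beside 3.7%. The median difference was -0.14 in the brighter and -0.21 in the dimmer members, beside 0.03 and 0.04 in all probe sets of each kind. In 3 groups of rising intensity, the count was 17 of the 54 dimmest members (31.5%, beside 3.9% of all probe sets in that intensity range), 17 of the 53 in the middle (32.1%, beside 12.2%) and 8 of the 54 brightest (14.8%, beside 8.21%). The median difference was -0.23 (0.04 over all probe sets of that range), -0.30 (0.004) and 0.08 (0.05) in the same order. Whether these groups differ was not tested. Without untreated ground replicate 3, the median of the members below the median of all probe sets was -0.33, and that of the members above it was -0.07 without treated ground replicate 1 and -0.08 without untreated ground replicate 1. The median SD over the 8 arrays was 0.31 in the 54 dimmest members, beside 0.23 in all probe sets of their range, and 0.28 in the 54 brightest, beside 0.28.

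**Figure D2:**
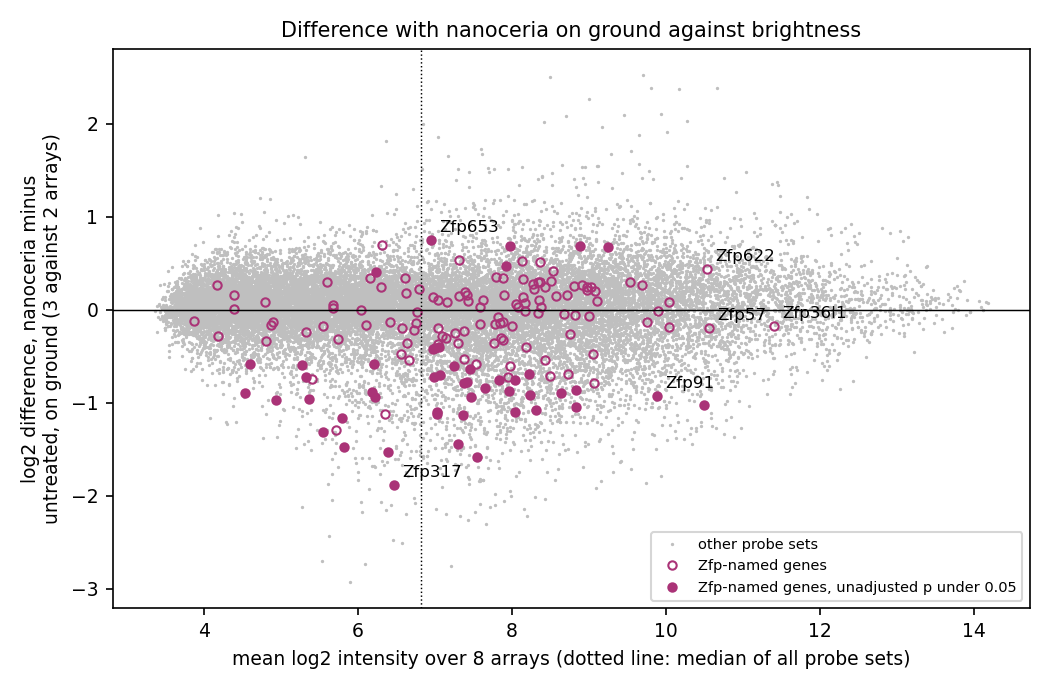
Difference between nanoceria-treated and untreated ground cells (vertical axis, log2 units) against mean log2 intensity (horizontal axis) for the 161 members, with filled circles for the 42 lower and 6 higher at an unadjusted p under 0.05, open circles for the other members, grey points for other probe sets and a dotted line at the median intensity of all probe sets. Lower members lie on both sides of that line and reach -1.88 for Zfp317.

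**Figure D3:**
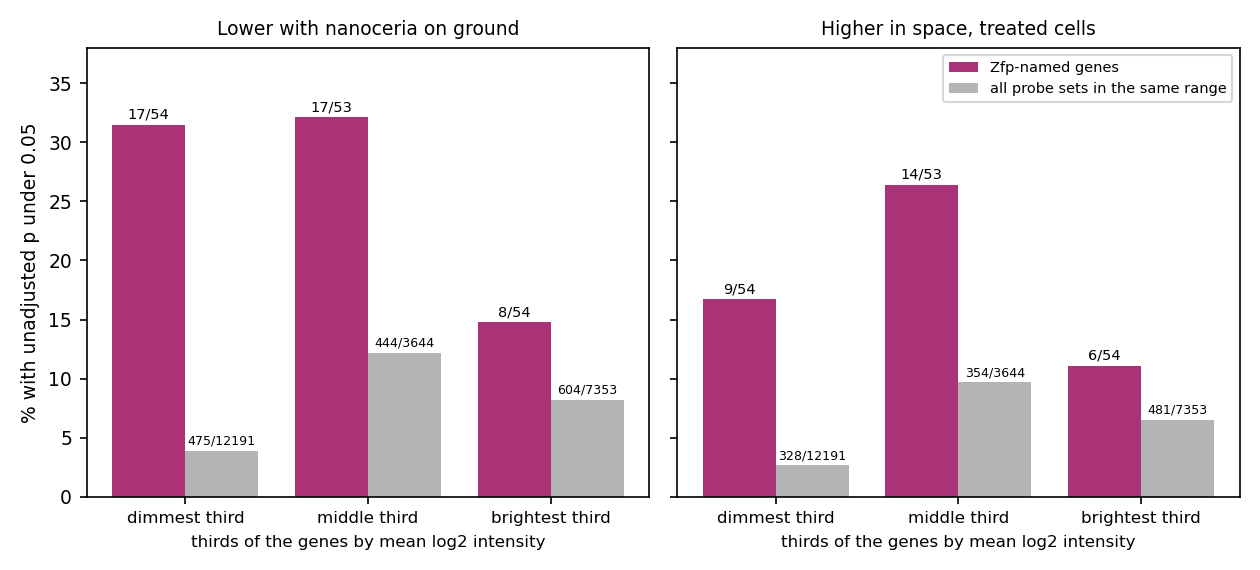
Percent of members (coloured bars) and of all probe sets of the same intensity range (grey bars) at an unadjusted p under 0.05, for the 54 dimmest, 53 middle and 54 brightest members, with counts above the bars: lower with nanoceria on the ground (left) and higher in space in treated cells (right). The members' bars are above the grey ones in all 6 pairs, and the dimmest pair differs most on the left, at 31.5% beside 3.9%. The 2 panels share the treated ground arrays.

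In space the nanoceria difference rests on 1 untreated array, which is assumed to vary like the arrays of the other groups. The p-values and SEs of this comparison and of the interaction therefore take no spread from untreated space cells. There, 3 members (1.86%) were lower at an unadjusted p under 0.05, beside 0.763% of all probe sets, and 1 (0.621%) was higher, beside 0.707%. The median difference was -0.03, beside 0.01 over all probe sets. This comparison shares no array with the one on the ground. Of the 42 members lower on the ground, 33 (78.6%) were lower in space by any amount, near the 79.7% of the 1523 probe sets that were lower on the ground, so the members' share matched the background. Their median difference in space was -0.20. The 3 lower members in space, Zfp317 (-1.07 ± 0.31), Zfp347 (-1.40 ± 0.42) and Zfp445 (-1.12 ± 0.34, and -0.74 without treated space replicate 2), were among the 42 on the ground. The higher one was Zfp503, a regulator of neural and limb development, at 0.67 ± 0.20, with 8.02 in untreated and 8.64 and 8.74 in treated space cells against 8.72 to 8.92 on the ground arrays. Zfp655 was at 0.01 ± 0.27 in space and -0.92 ± 0.20 on the ground. The interaction, the nanoceria difference in space minus that on the ground, was higher at an unadjusted p under 0.05 in 9 members (5.59%, beside 1.44% of all probe sets) and lower in 1 (0.621%, beside 0.906%), with a median of 0.15 beside -0.01, which was 0.08 without treated ground replicate 1. Zfp458, at 0.89 (unadjusted p = 0.0162), and Zfp655, at 0.93, were among the 9, and the lower one was Zfp653 at -0.60. No member passed the limma adjusted p of 0.05 in either, where the smallest was 0.9999.

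Over both regimes, with regime in the fit, 34 members (21.1%) were lower with nanoceria at an unadjusted p under 0.05, beside 5.86% of all probe sets, and 7 (4.35%) were higher, beside 3.77%. The median was -0.12, beside 0.03 over all probe sets, and it was -0.07 without untreated ground replicate 1. The smallest p-values were those of Zfp317 (-1.59 ± 0.22) and Zfp347 (-1.45 ± 0.24), both with a limma adjusted p of 0.320. Zfp347 read 6.59 and 6.17 in untreated and 4.53, 5.41 and 4.76 in treated ground cells, and 7.27 in untreated and 6.18 and 5.56 in treated space cells. In each regime its treated arrays lay below the untreated ones. Zfp445, a KRAB protein that keeps imprints together with Zfp57, read 5.51 and 5.50 against 4.27, 4.74 and 4.63 on the ground and 6.83 against 6.09 and 5.33 in space, a difference of -1.02 ± 0.19. Its treated arrays again lay below the untreated ones of their regime. Zfp709l1 (-0.64 ± 0.12), Zfp68 (-1.14 ± 0.24) and Zfp868 (-0.69 ± 0.15) followed, and Zfp653 (0.53 ± 0.15) and Zfp668 (0.56 ± 0.19, and 0.37 without untreated ground replicate 1) had the smallest p-values among the higher members. The count of 7 higher members was 3 without untreated ground replicate 1, 4 without replicate 3 and 4 without treated ground replicate 1. The shares of all probe sets under these fits are not given.

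Between space and ground, the members were split evenly by direction, with 80 higher in space by any amount (49.7%, beside 41.3% of all probe sets) and 81 lower (50.3%, beside 58.7%). Over both treatments, 20 members (12.4%) were higher in space at an unadjusted p under 0.05, beside 5.3% of all probe sets, and 10 (6.21%) were lower, beside 4.26%. The median difference was -0.00035, beside -0.04 over all probe sets. In nanoceria-treated cells, 29 members (18%) were higher in space, beside 5.02%, and 8 (4.97%) lower, beside 3.39%, with a median of 0.03 beside -0.05 that turned to -0.02 without treated space replicate 1. This last comparison shares the 3 treated ground arrays with the comparison of nanoceria on the ground, so a low value there moves both. Of its 29 higher members, 26 (89.7%) were among the 42 lower with nanoceria on the ground. The same overlap over all probe sets is not given. The comparison over both treatments also uses those 3 arrays. By intensity, the members higher in space in treated cells were 9 of the 54 dimmest (16.7%, beside 2.69% of all probe sets of that range), 14 of the 53 middle (26.4%, beside 9.71%) and 6 of the 54 brightest members (11.1%, beside 6.54%). No member passed an adjusted p of 0.05 in limma, where the smallest was 0.299 over both treatments and 0.280 in treated cells. These counts moved with single arrays, and the shares of all probe sets under the same fits are not given here. Over both treatments, 10 members were higher without treated space replicate 1 and 10 without replicate 2, and 32 without untreated ground replicate 1, while 3 were lower without treated space replicate 1 and 5 without replicate 2. In treated cells, 12 were higher without treated space replicate 1, and 3 were lower without either treated space array and 5 without treated ground replicate 3.

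Zfp317 was higher in space by 1.41 ± 0.22 over both treatments and by 1.70 ± 0.23 in treated cells, and Zfp445 by 1.22 ± 0.19 over both. In neither gene did all treated space arrays lie above the untreated ground arrays. Zfp292 read 7.59, 6.95, 6.69, 7.06 and 6.46 on the ground arrays and 8.26, 8.13 and 7.85 in space. The 3 space arrays lay above all 5 ground arrays, a difference of 1.16 ± 0.20. Such a full separation was seen upward in 5 members (3.11%, beside 1.97% of all probe sets) and downward in 6 (3.73%, beside 3.14%). Zfp280d read 7.23 and 7.39 in untreated and 5.59, 6.37 and 6.67 in treated ground cells and 8.29, 7.42 and 7.27 in space, a difference of 1.08 ± 0.23. Zfp426 was higher in treated space cells by 0.98 ± 0.20. Among members lower in space, Zfp524 read 9.11 and 9.24 in untreated and 9.46, 9.44 and 9.37 in treated ground cells, and 8.09, 8.41 and 9.09 in space, a difference of -0.82 ± 0.18. The 3 space arrays were the lowest of the 8, and treated space replicate 2 lay next to the ground arrays. Zfp467 (-0.49 ± 0.14) and Zfp653 (-0.39 ± 0.15) were also lower in space, and Zfp653 was at -0.60 without the untreated space array.

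The members with other roles were taken by list. Of the CCCH proteins that bind AU-rich messenger RNA, 3 of 4 listed genes were measured and 0 had an unadjusted p under 0.05 with nanoceria on the ground, beside 6.57% lower and 4.42% higher of all probe sets. Zfp36 (tristetraprolin), which speeds decay of cytokine messages, read 6.74 and 5.73 in untreated and 6.53, 6.55 and 7.70 in treated ground cells, and 5.49 in untreated and 5.95 and 5.80 in treated space cells. Its difference between space and ground was -0.94 ± 0.32, with 1 untreated ground array inside the range of the space arrays. Zfp36l1 was at -0.17 ± 0.20 for nanoceria on the ground, and at -0.005 without treated ground replicate 1. Zfp36l2 was at 0.44 ± 0.20 for space against ground, short of an unadjusted p under 0.05.

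Of 13 listed genes for RNA and ribosome work, 7 were measured, 1 was lower (beside 6.57% of all probe sets) and none higher (beside 4.42%) at an unadjusted p under 0.05 with nanoceria on the ground, and the median was 0.14. The lower one was the ubiquitin ligase Zfp91, a role that the list's name does not describe. Zfp91 read 10.31 and 10.12 in untreated and 8.89, 9.37 and 9.61 in treated ground cells (-0.93 ± 0.23). In space it read 10.36, 10.33 and 10.09. Zfp622 read 10.12 and 10.72 against 11.23, 10.69 and 10.65 (0.44 ± 0.26, and 0.14 without untreated ground replicate 1), and its groups overlapped. Zfp593, a ribosome assembly factor, was at 0.54 ± 0.32 and Zfp598, a ubiquitin ligase that senses collided ribosomes, at 0.10 ± 0.15. Of 24 listed GC-box and developmental factors, 15 were measured and 2 were lower (beside 6.57% of all probe sets), with a median of 0.08. Zfp148, which binds GC-rich promoters, read 10.75 and 11.02 against 9.59, 10.32 and 9.69 on the ground (-1.02 ± 0.27), with 11.07, 11.01 and 10.55 in space. Zfp518a was at -0.59 ± 0.21, Zfp281 at -0.79 ± 0.50 and Zfp668 at 0.53 ± 0.25, and these were -0.35, -0.21 and 0.16 without untreated ground replicate 1.

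The corepressor machinery that KRAB proteins recruit held genes on both sides. Of 34 listed genes, 19 were measured, and with nanoceria on the ground 2 were lower and 3 higher at an unadjusted p under 0.05, beside 6.57% lower and 4.42% higher of all probe sets, with a median of 0.07. Trim28 itself read 9.84 and 10.20 in untreated and 11.16, 11.15 and 11.03 in treated ground cells, and 10.20 in untreated and 10.17 and 10.31 in treated space cells. Its treated ground arrays were the 3 highest (1.09 ± 0.17; limma adjusted p = 0.128). Mphosph8, a HUSH complex subunit that reads methylated histone H3, read 8.76 and 9.44 against 7.37, 7.69 and 7.43 (-1.60 ± 0.26), and Smarcad1, a chromatin remodeller that binds Trim28, 7.46 and 6.52 against 5.93, 5.90 and 5.63 (-1.17 ± 0.27). Without untreated ground replicate 1 these were -1.94 and -0.70, and Mphosph8 alone of the named genes then passed the threshold (limma adjusted p = 0.0392). Mbd3, a subunit of the NuRD deacetylase complex, was at 0.52 ± 0.17, Ppp1ca at 0.68 ± 0.22 (0.45 without untreated ground replicate 1) and Setdb1 at -0.08 ± 0.19. Other zinc finger families were read against the same 6.57% and 4.42%. Of 36 Zbtb genes 4 were lower and 2 higher (median -0.09). Of 5 Zkscan genes 1 was lower (median -0.29), and of 2 Znf genes 2 were lower (median -1.02). Of 3 Zscan genes 0 were lower or higher (median 0.11), and of 14 Klf genes 2 were lower and 1 higher (median 0.05). Whether the Zfp members differ from these families was not tested.

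Neighbouring members were compared because zinc finger genes of this kind often lie in clusters of duplicated copies, whose probe sets can share sequence. In the RefSeq gene order, 63 members lay in 20 runs with at most 2 other protein-coding genes between neighbours, and the largest run held 7. In runs, 19 of 63 (30.2%) were lower with nanoceria on the ground, and outside runs 23 of 98 (23.5%), beside 6.57% of all probe sets. Whether members in runs differ from the others was not tested. The median difference was -0.30 in runs and -0.13 outside. In 9 of the 20 runs all members were lower by any amount. Of all members 62.1% were lower by any amount, and no such count was made for runs of other genes. In one run Zfp54 was at -1.31 ± 0.41, Zfp53 at -1.29 ± 0.56 and Zfp52 at -0.97 ± 0.34. Without untreated ground replicate 1 these were -0.57, -0.37 and -0.49. The run of Zfp397, Zfp35 and Zfp24 was at -1.10, -0.54 and -0.88, where Zfp35 was -0.18 without untreated ground replicate 3 and Zfp24 -0.47 without treated ground replicate 3. Neighbours also differed: Zfp74 at -1.13 ± 0.22 and Zfp260 at -1.04 ± 0.32 lay in a run with Zfp566 at 0.18 ± 0.15, and the run of 7 from Zfp786 to Zfp467 ran from -0.33 to 0.34.

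The promoters of the members held the ETS core CGGAAG, the sequence read by ETS factors, on either strand in 50 of 132 (37.9%), beside 20.7% of the 12303 promoters of the other genes on the array and 14.7% of all 27457. Of the 34 members lower with nanoceria on the ground that had a promoter, 17 held it (50%), and of the other 98 members 33 (33.7%). Its copy lies 25 bases before the start in Zfp445, 32 in Zfp709l1, 48 in Zfp458 and 186 in Zfp68, while Zfp317, Zfp347, Zfp386 and Zfp868 hold none. The median difference on the ground was -0.32 in members with the core and -0.13 in members without it. The YY1 core GATGGCGG was in 6 of 132 (4.55%, beside 1.22% of the other array genes), 5 of them among the 34 lower members (14.7%) and 1 among the other 98 (1.02%). An NRF1 site was in 3.03% (beside 1.16%), the ZNF143 part ACTACAA in 6.82% (beside 3.29%) and the full CRE TGACGTCA in 3.03% (beside 2.36%), the last in 4 members with a median difference on the ground of -0.71. The GC box GGGCGG (45.5%, beside 47%), the CCAAT box (37.9%, beside 35.2%) and the SOX core CTTTGT (15.2%, beside 13.7%) were near their share in the other array genes. GC content was 57.2% in both members and array genes, with a median of 13 CpG in members and 12 in array genes. In all 17 motifs were searched after the data were seen, and none of these shares was tested. A match is a description of these bases and does not show binding.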

How the data were processed

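Total RNA of 8 H9c2 samples was measured on 1 Clariom S Pico array each. The deposited intensity values, 1 per probe set and array on a linear scale, were made by the authors with RMA, per the submitters' processing notes; its settings are not given in the sources used here. Log2 was taken with no pseudocount. Gene symbols came from the platform annotation, and 15049 of 23188 probe sets had 1 symbol.

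Differences were fitted over all 23188 probe sets with limma 3.58.1 in R 4.3.3: regime and treatment as 2 additive terms (5 residual degrees of freedom) for comparisons over both regimes or treatments, and a fit with 1 mean per group (4) for the rest and the interaction, with empirical Bayes variance and Benjamini-Hochberg adjustment. The fits were tested on simulated data. As nothing passed an adjusted p of 0.05, members are described by counts at an unadjusted p under 0.05 beside the share of all probe sets.

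The members, lists and tests were chosen with earlier results of these data known. Named were, in each of 4 comparisons, the 6 members with the smallest p in each direction, the 8 brightest, and up to 4 of each list; a few others, from neighbouring runs and interaction results, were named after their values were seen. Protein sequences were not used here, so promoters stood in for the planned protein features. Motifs were searched on both strands in the 250 bases before the first listed start of each gene in RefSeq (GRCr8), 17 in all, after the data were seen: the ETS core CGGAAG, the GC box GGGCGG, the NF-Y box CCAAT, the TATA box TATAAA, the short CRE form TGACGT, the full CRE TGACGTCA that holds it, the E box CACGTG, the AP-1 site TGACTCA, the YY1 core GATGGCGG, a longer YY1 site that holds it, an NRF1 site, a ZNF143 part ACTACAA, the palindrome of CpG-island promoters, the SOX core CTTTGT, the octamer ATTTGCAT, and the E2F form TTTGCGC and its other form GCGGGAA. Alternatives were array scaling, a filter on dim probe sets, an offset of 16, variance models, array weights, a replicate block, another averaging of groups, and leaving out each array.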

Additional observations from a re-analysis of the deposited data

How the results depend on the processing

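With 10 alternatives and with each array left out in turn, 80 of the 83 differences of named genes kept their direction, and no member passed an adjusted p of 0.05 in limma. The exceptions, none past the threshold, were Zfp57 on the ground (-0.66 to 0.26 over the left-out arrays, the last without untreated ground replicate 1), Zfp609 on the ground (-0.31 to 0.014, the last without treated ground replicate 1) and Zfp655 in space (-0.057 to 0.084, the first without treated space replicate 1, -0.0016 with cyclic loess and -0.016 with the replicate block). The corepressor gene Mphosph8 passed on the ground without untreated ground replicate 1 (limma adjusted p = 0.0392). Of 206 values under alternatives other than leaving out an array, 5 changed by more than 1.5 times, and of 172 values with an array left out, 13 did. Array weights gave 2 members higher with nanoceria on the ground in place of 6. Deviations of same-numbered arrays correlated at -0.35 to -0.01. With 4 pairs in such small groups, this cannot decide whether replicate numbers paired the arrays. With the replicate number as a block, 4 members were higher with nanoceria over both regimes in place of 7, 5 lower and 13 higher in space over both treatments in place of 10 and 20, and 3 lower in space in treated cells in place of 8, while 33 were lower with nanoceria on the ground in place of 42. Leaving out an array gave 29 to 48 members lower with nanoceria on the ground and 23 to 42 over both regimes, 3 to 8 higher over both regimes, 3 to 12 lower and 10 to 32 higher in space over both treatments, 3 to 9 lower and 12 to 30 higher in space in treated cells, and a median difference on the ground of -0.33 to -0.17 in the dimmer, -0.17 to -0.07 in the brighter and -0.20 to -0.10 in all members. The cause of these changes was not tested. Shares of all probe sets under the same fits are not given. The counts therefore cannot tell a change in the members from one over the whole array. Without the untreated space array, nanoceria in space and the interaction could not be fitted. Taking the dimmest probe set changed nothing, as each member had 1, and the filter on dim probe sets left 138 members.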
